A study of Rattus norvegicus with 102 samples.

Results

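The postsynaptic scaffold genes Homer1, Homer2, Homer3, Shank1, Shank2, Shank3, Dlg4 and Dlgap1 were followed through hippocampal subfields CA1, CA3 and the dentate gyrus (DG) of male Fisher 344 rats. The members were the rows whose gene name equalled 1 of these 8 symbols, which gave 9 rows of the 26284 genes listed in the Illumina table and of the 26341 listed in the Ion Proton table, because Shank2 has 2 rows. The rats were 10 young animals of 5 to 6 months, 12 aged unimpaired animals and 12 aged impaired animals, both aged groups 17 to 22 months old and separated by their spatial memory in the Morris water maze. The labels name no transgene, surgery or drug for any group, and each of the 34 rats gave 1 library from each subfield, so the 3 subfields are paired within a rat. Each subfield was dissected and frozen, and libraries were made from total RNA of the whole piece, so fewer cells of a type and less RNA per cell cannot be told apart.

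The postsynaptic density is the protein mesh behind the membrane of an excitatory synapse. PSD-95, the product of Dlg4, holds glutamate receptors and adhesion proteins near the surface, the SAPAP proteins (Dlgap1 encodes one) link PSD-95 to the Shank proteins deeper in the mesh, and Shank proteins bind Homer proteins, whose tetramers reach metabotropic glutamate receptors and the calcium channels of the endoplasmic reticulum. Homer1 also makes a short activity-induced form that cannot cross-link, and reads counted per gene do not separate it from the long forms.

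The Illumina libraries held 3246922 to 42750899 reads counted to genes (median 10745742). The Ion Proton libraries, made from the same rats, held 4470473 to 21434160 (median 9738395). A further table that its submitters marked WT, whose library type is not stated, held 3539310 to 20625745 (median 8068863). Levels are normalized read counts, the reads of a gene divided by the size factor of the library, and they compare libraries but not genes of different length. Of the 8 tested rows that of Homer2 had the lowest median in the Illumina libraries, 179.5 reads, with at least 28 reads in every library. Since both poly-A tables come from the same animals, the Ion Proton values bear on technical error only. Summed CA1 pyramidal markers (6 of 8 genes listed) averaged 7639 in CA1 against 2390 in CA3 and less in DG, and dentate granule markers averaged 9864 in DG against 6052 in CA1 and 3966 in CA3, but CA3 pyramidal markers were nearly as high in DG (19940) as in CA3 (21303).

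Rat numbers fall into a series under 9000 (18 rats, 5 of them young) and a series from 9000 up (16 rats, 5 of them young). The study tested its rats at 2 sites, whose numbers of young and aged rats equal those of the series, but no label ties a rat to a site, and a difference between the series cannot be told apart from one between sites. By their marker levels 18 libraries in the Illumina table and 14 in the Ion Proton table lay nearer to another subfield than to that of their own label, and 14 did so in both: 10 labelled CA3, 3 labelled DG and 1 labelled CA1. They came from 13 rats, 12 of them numbered from 9000 up, and all 10 CA3 libraries were from that series. Whether pieces of tissue were mixed in dissection or labels exchanged was not tested. Most called differences that rest on CA3 are therefore also given by series, without these libraries, or both.

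RefSeq promoters (build GRCr8, 250 bases before to 50 after the start, 5′ to 3′ on the strand of the gene) were found for 5 of the 8 members. The table held none for Homer2, Shank1 and Shank2. Homer1 and Homer3 are shown as paralogues whose subfield patterns differed, and Shank3 and Dlg4 as members that were both lower in CA3. Positions are chr2:26278762-26279061 on the plus strand for Homer1, chr16:19174549-19174848 on the minus strand for Homer3, chr7:122448073-122448372 on the plus strand for Shank3 and chr10:55239534-55239833 on the plus strand for Dlg4, and capitals mark a TATA box.
Homer1: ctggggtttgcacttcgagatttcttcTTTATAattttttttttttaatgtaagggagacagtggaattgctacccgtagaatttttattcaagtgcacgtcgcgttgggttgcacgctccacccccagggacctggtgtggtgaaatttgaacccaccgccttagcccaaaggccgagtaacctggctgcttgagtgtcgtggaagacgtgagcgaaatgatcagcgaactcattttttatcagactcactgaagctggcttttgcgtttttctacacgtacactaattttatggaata
Homer3: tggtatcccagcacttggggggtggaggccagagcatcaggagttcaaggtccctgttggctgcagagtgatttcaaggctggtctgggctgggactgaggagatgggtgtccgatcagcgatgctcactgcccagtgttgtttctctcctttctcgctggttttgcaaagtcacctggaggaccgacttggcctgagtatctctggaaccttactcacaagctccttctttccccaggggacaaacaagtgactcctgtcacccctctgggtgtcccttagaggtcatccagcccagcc
Shank3: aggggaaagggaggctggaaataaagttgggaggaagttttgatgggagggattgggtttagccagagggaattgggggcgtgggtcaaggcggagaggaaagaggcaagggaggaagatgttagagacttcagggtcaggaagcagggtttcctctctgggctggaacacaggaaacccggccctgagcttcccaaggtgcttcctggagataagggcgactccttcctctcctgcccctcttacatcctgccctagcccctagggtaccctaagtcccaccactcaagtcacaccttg
Dlg4: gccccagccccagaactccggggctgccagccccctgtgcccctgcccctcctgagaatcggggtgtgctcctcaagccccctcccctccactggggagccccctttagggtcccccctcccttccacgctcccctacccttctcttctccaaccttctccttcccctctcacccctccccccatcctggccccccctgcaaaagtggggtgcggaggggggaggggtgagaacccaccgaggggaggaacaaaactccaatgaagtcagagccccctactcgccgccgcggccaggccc
The search on both strands for the TATA box TATAAA, the CRE half-site TGACG and the GC box GGGCGG found 1 match in the printed promoters, the TATA box of Homer1, which lies on the opposite strand. Of all 33469 promoters, 14.2% hold TATAAA, 21.2% TGACG and 33.1% GGGCGG. GC content was 44.7% for Homer1, 56.3% for Homer3 and Shank3 and 68.7% for Dlg4, against a median of 51.7% over all promoters. These windows come from a build other than the one used for the reads, and no binding or methylation was measured at them.

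The scaffold genes were first compared between subfields. A difference was called when the limma test gave an adjusted p under 0.05 in both poly-A tables in the same direction. By this rule 4 of 8 members differed between CA1 and CA3 (Dlg4, Homer2 and Shank3 higher and Homer3 lower in CA1), where 14.1% of all 14179 genes were called, 7.12% as higher and 6.95% as lower in CA1. This count was 2 in the rats numbered under 9000 alone, where 21.4% of all genes were called. It was 0 in those from 9000 up alone, where 3.88% were called. The Dlg4 call was lost with edgeR and with DESeq2. Between CA1 and DG, 3 of 8 members differed (Homer2 and Shank1 higher, Homer3 lower in CA1) against 26.4% of all genes (13.1% higher, 13.2% lower). Between CA3 and DG, 3 of 8 differed (Homer2 higher, Homer3 and Shank3 lower in CA3) against 27.9% (13.9% higher, 14% lower). The shares against DG lie near the background and are no result about the scaffold genes as a group.

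Homer2 (ENSRNOG00000019297), a long-form Homer that clusters metabotropic receptors, was highest in CA1 and lowest in DG. Its normalized read count ran from 141 to 405 in CA1 (median 273), from 123 to 381 in CA3 (median 199) and from 48.3 to 253 in DG (median 135). All 34 CA1 libraries lay above the DG median and 21 lay above every DG library, whereas CA1 and CA3 overlapped. Within rats, CA1 exceeded DG in 32 of 34, CA3 exceeded DG in 31 and CA1 exceeded CA3 in 30. The difference from DG was a log2 of 0.95 in CA1 (SE 0.10, adjusted p = 1.45e-13, limma), a 1.93-fold higher level, and 0.53 in CA3 (SE 0.10, adjusted p = 5.00e-06). CA1 exceeded CA3 by a log2 of 0.42 (SE 0.10, adjusted p = 0.000585). The Ion Proton libraries gave 0.96, 0.52 and 0.43, and the WT libraries 0.94, 0.47 and 0.48, so the order was alike in the 3 tables.

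Homer3 (ENSRNOG00000020229), the remaining long-form Homer, ran in the opposite order. Its level was 286 to 1369.6 in CA1 (median 592), 242 to 2278 in CA3 (median 1178) and 353 to 2291 in DG (median 1673). Each of the 34 CA1 libraries lay below the DG median, and CA1 was below DG within 33 of 34 rats in both the Illumina and the Ion Proton libraries. CA3 spread over the whole range of the other subfields, with a SD of 650.1 around a mean of 1171, and was above CA1 in only 20 rats and below DG in 23. DG exceeded CA1 by 2.40-fold (log2 of CA1 over DG -1.27, SE 0.16, adjusted p = 1.04e-10). CA1 was below CA3 by a log2 of -0.60 (SE 0.16, adjusted p = 0.00191) and CA3 below DG by -0.67 (SE 0.16, adjusted p = 0.000234). The Ion Proton values were -1.24, -0.62 and -0.62 and the WT values -1.25, -0.54 and -0.71. The call for CA3 against DG depended on the tool: edgeR gave -0.47 (Ion Proton adjusted p = 0.0619) and DESeq2, the study's own method, -0.46 (Ion Proton adjusted p = 0.0611), and neither called it.

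The ratio of Homer3 to Homer2 reads, which is not corrected for gene length, averaged 2.64 in CA1, 6.79 in CA3 and 13.3 in DG. The CA3 average pools unlike series. Under 9000 the ratio averaged 2.45 in CA1, 10.8 in CA3 (6.64 to 16.2) and 16.3 in DG. From 9000 up it averaged 2.87 in CA1, 2.31 in CA3 (0.784 to 4.16) and 9.88 in DG, so CA3 did not lie between the others there. Across all Illumina libraries the log2 levels of these paralogues correlated at r = -0.675, and at -0.527 across the Ion Proton libraries, a description only since libraries of a subfield share its composition and those of a rat share the animal.

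Homer1 (ENSRNOG00000047014), the founding member of the family, had narrow DG values, 746 to 1068 (median 915), beside 809 to 1640.1 in CA1 (median 1166) and 766 to 1396 in CA3 (median 1077). CA1 was above DG within 29 of 34 rats, although the groups overlapped. The Illumina difference from DG was a log2 of 0.33 in CA1 (adjusted p = 3.40e-09) and 0.21 in CA3 (adjusted p = 8.16e-05). Neither met the rule, because the Ion Proton libraries gave 0.24 (adjusted p = 0.131) and 0.06 (adjusted p = 0.770). The WT table gave 0.44 and 0.17 with adjusted p = 1.26e-11 and 0.00357. Over all rats the CA1 to DG difference was thus positive in the 3 tables. In the rats numbered under 9000 it was called (0.46, Ion Proton 0.65 with adjusted p = 0.00488), whereas from 9000 up it was 0.20 in the Illumina libraries and -0.22 in the Ion Proton ones, where the CA1 mean was 662 and the DG mean 763. The difference between the series was -0.26 (adjusted p = 0.124) in the Illumina and -0.87 (adjusted p = 0.0727) in the Ion Proton libraries, and neither passed.

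**Figure D1:**
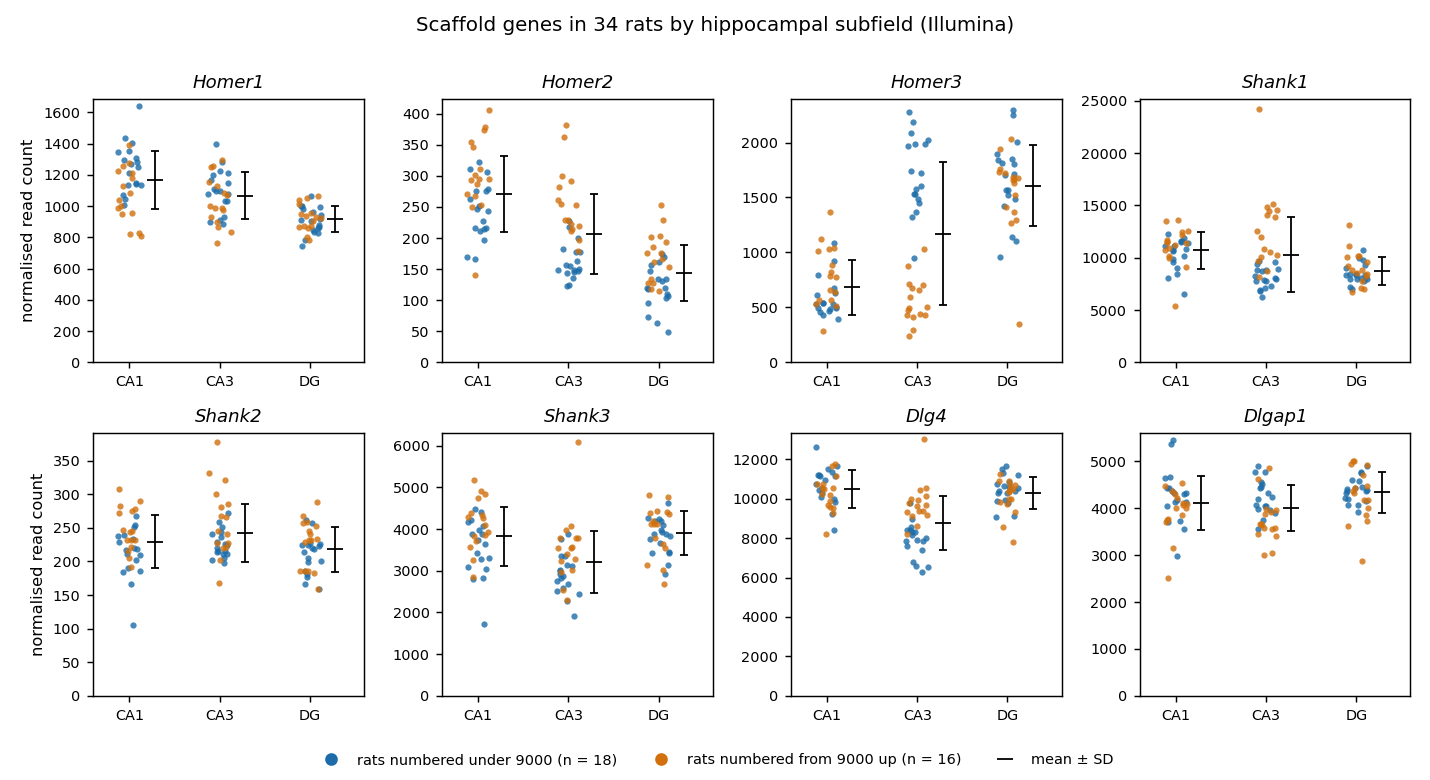
Normalized read counts of each scaffold gene in the Illumina libraries, by subfield, with 1 point per library (34 per subfield). Homer2 steps down from CA1 (median 273) to DG (median 135), Homer3 steps up from 592 to 1673 with a wide CA3 spread, and Dlg4 and Shank3 are lowest in CA3.

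Of the Shank family, large scaffolds that join the SAPAP proteins to Homer and the actin skeleton, Shank3 (ENSRNOG00000032936) was lower in CA3 than in both other subfields. Its level was 1721 to 5184 in CA1 (median 3879), 1908 to 6093 in CA3 (median 3133) and 2673 to 4816 in DG (median 3948). The ranges overlapped, with 7 of 34 CA3 libraries below every DG library and 1 above, and CA3 was the lower within 30 of 34 rats against CA1 and within 30 against DG. CA1 exceeded CA3 by a log2 of 0.26 (SE 0.07, adjusted p = 0.00125, Ion Proton 0.24 with adjusted p = 0.0200), a 1.19-fold difference. CA3 was below DG by a log2 of -0.30 (SE 0.07, adjusted p = 8.30e-05, Ion Proton -0.36). Among the WT libraries the first of these was -0.0081, so the CA1 to CA3 difference was not seen there, while CA3 against DG was -0.23.

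Shank1 (ENSRNOG00000019207) was higher in CA1 than in DG. Its level was 5390.2 to 13633 in CA1 (median 11137), 6274 to 24202 in CA3 (median 9125) and 6703 to 13116 in DG (median 8433). CA1 lay above DG within 30 of 34 rats, with overlapping groups. The log2 difference was 0.28 (SE 0.08, adjusted p = 0.000912) and 0.52 in the Ion Proton libraries (adjusted p = 0.00141), or 1.22-fold in the Illumina libraries. CA3 against DG reached 0.18 (adjusted p = 0.0335) but 0.25 with adjusted p = 0.147 in the Ion Proton libraries, so it was not called. CA1 against CA3 gave 0.10 (adjusted p = 0.306). In the WT libraries CA1 exceeded DG by 0.23, which did not pass (adjusted p = 0.0799).

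Shank2 had no called difference with limma. The row ENSRNOG00000050206 ran from 105 to 307 in CA1, 168 to 378 in CA3 and 159 to 288 in DG, with medians of 232, 228 and 223. The largest Illumina difference, CA3 over DG, was a log2 of 0.15 (adjusted p = 0.0236, Ion Proton 0.24 with adjusted p = 0.0839). DESeq2 called that difference (0.14, adjusted p = 0.0294, Ion Proton adjusted p = 0.0460), edgeR did not (Ion Proton adjusted p = 0.0659), and limma called it without rat R1931 (0.16) or without rat R9865 (0.16). The other row, ENSRNOG00000047651, held 0 reads in 88 Illumina libraries and at most 2 in any, and was too low to test. In the Ion Proton libraries the same row held 45 to 660 reads (median 236.5), so the 2 tables differ in how reads reach the rows of Shank2 and a Shank2 level from either row is uncertain.

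Dlg4 (ENSRNOG00000018526), which encodes PSD-95, was lower in CA3 than in CA1. Its level was 8189 to 12594 in CA1 (median 10526), 6284 to 13005 in CA3 (median 8599) and 7794 to 11667 in DG (median 10394). CA3 was below CA1 within 31 of 34 rats and below DG within 29, and CA1 and DG overlapped, with 3 of 34 CA1 libraries above every DG library. CA1 exceeded CA3 by a log2 of 0.27 (SE 0.04, adjusted p = 3.59e-08), 1.21-fold, with 0.23 in the Ion Proton libraries (adjusted p = 0.0478). This call stood at the threshold of the Ion Proton test and was lost with edgeR, DESeq2 and other alternatives given below. The Illumina difference was 0.44 in the rats numbered under 9000 and 0.07 in those from 9000 up, with Ion Proton adjusted p = 0.0951 and 0.321, so neither series called it alone. CA3 against DG was -0.24 (adjusted p = 2.17e-07) but missed in the Ion Proton libraries (-0.20, adjusted p = 0.0611), and was called when the rat was kept as a block (Ion Proton adjusted p = 0.0463). The WT table gave 0.18 for CA1 over CA3 and -0.18 for CA3 over DG.

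Dlgap1 (ENSRNOG00000016196), which encodes the SAPAP protein that bridges PSD-95 and Shank, had medians of 4132 in CA1 (2517 to 5461), 3971 in CA3 (2999 to 4907) and 4363 in DG (2880 to 5005). No subfield difference was called. The largest in the Illumina libraries, CA3 against DG, was -0.12 (adjusted p = 0.0199) and 0.02 in the Ion Proton libraries (adjusted p = 0.894).

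**Figure D2:**
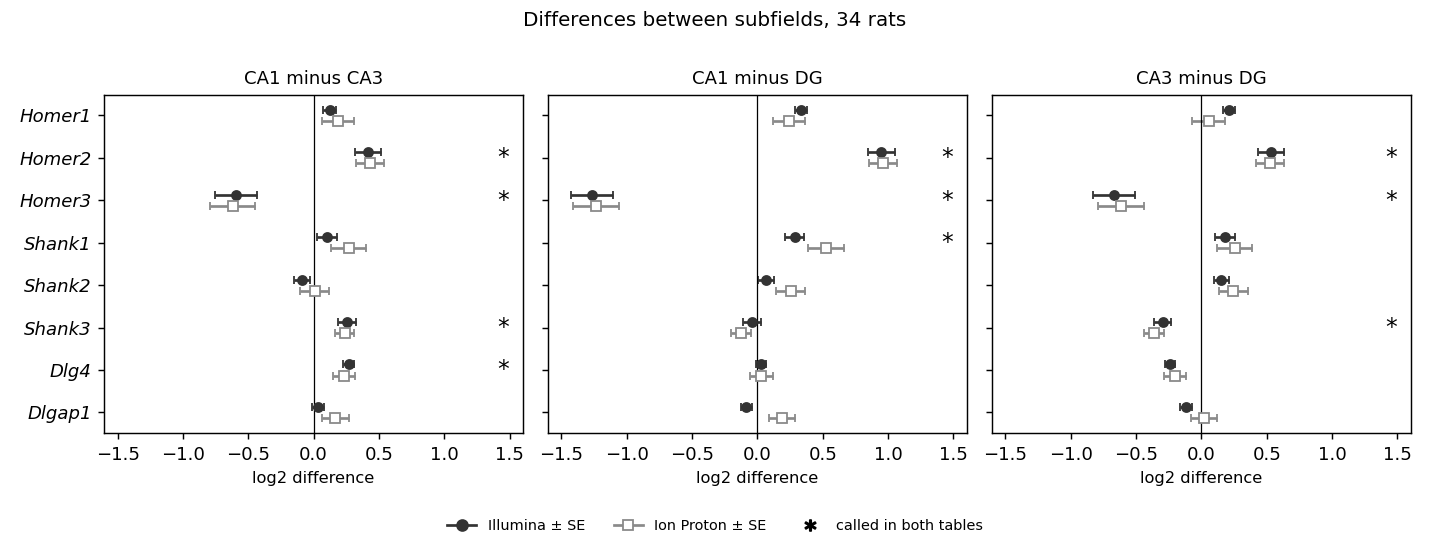
Log2 differences between subfields for each scaffold gene in the Illumina and Ion Proton libraries. Homer2 lies to the positive side in all 3 comparisons (0.42, 0.95 and 0.53) and Homer3 to the negative side (-0.60, -1.27 and -0.67), with both platforms close together.

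The wide CA3 spread of Homer3 followed the number series, a division added after the data were seen. Its CA3 level was 946 to 2278 in the 18 rats numbered under 9000 (mean 1713 ± 349.8 SD) and 242 to 1031 in the 16 rats from 9000 up (mean 562 ± 207 SD). Only the ends of these ranges overlapped. The means for CA1 were 589 and 789 and for DG 1664 and 1545, and the tested series difference was -1.67 in CA3 (adjusted p = 2.17e-16), 0.38 in CA1 (adjusted p = 0.0468) and -0.15 in DG (adjusted p = 0.519). CA3 was thus where the series lay farthest apart. Under 9000, CA1 was below CA3 by a log2 of -1.56 (adjusted p = 3.82e-18, Ion Proton -1.65) and CA3 was 0.05 above DG, which was not called. From 9000 up, CA1 was not lower than CA3 (0.49, adjusted p = 0.0780) and CA3 was below DG by -1.47 (adjusted p = 1.34e-07). Homer3 in CA1 was below DG in both series, by -1.52 and -0.98. Thus the place of CA3, at the DG level or at the CA1 level, depended on the series, and the difference of CA1 from DG did not change sign.

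The difference between the series was itself tested. For Homer3 it was 2.05 for CA1 against CA3 (adjusted p = 8.1e-13, Ion Proton 2.19) and -1.52 for CA3 against DG (Ion Proton -1.34, adjusted p = 4.69e-05). Such differences were common, reaching 39.7% of all genes for CA1 against CA3 and 48.4% for CA3 against DG in the Illumina libraries, but 0.839% for CA1 against DG, where no member passed. In the Ion Proton libraries the shares were 15%, 17.1% and 0.203%. For CA3 against DG, Dlg4 (0.37, Ion Proton 0.51 with adjusted p = 0.0207) and Shank1 (0.53, Ion Proton 0.71 with adjusted p = 0.0487) also passed in both platforms. Their mean CA3 levels were 7871 and 9765 for Dlg4, and 8122 and 12748 for Shank1, under 9000 and from 9000 up. For CA1 against CA3 these genes passed in the Illumina libraries but not in the Ion Proton ones (adjusted p = 0.595 and 0.716).

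Marker levels differed between the series, and in the libraries labelled CA3 also those of pyramidal cells. The summed CA3 pyramidal markers ran from 23909 to 28622 (mean 25464) under 9000 and from 7506 to 24191 (mean 16621) from 9000 up. The mean of the CA1 pyramidal markers rose from 1667 to 3202 and that of the dentate granule markers from 3046 to 5001, while neuron markers stood at 116671 and 85647. Glial markers also differed between the series, and not in CA3 alone. Oligodendrocyte markers (8 of 8 listed) averaged 198873 (121726 to 391699.5) and 128585 (56542 to 231665) in CA3, 113902 and 188996 in CA1, and 59409 and 129243 in DG, in the order under 9000 and from 9000 up. Astrocyte markers (8 of 8 listed) averaged 63702 and 78506 in CA3. Subiculum markers averaged 1989 and 3111 in CA3 and CA2 pyramidal markers 3980 and 2850. Choroid plexus markers averaged 769 (median 68.5) and 19787 (median 613) in CA1, with up to 151733 in a library from 9000 up. Their part in the member differences was not tested. Without the 14 libraries that lay nearer to another subfield, Homer3 was lower in CA1 than in CA3 by -0.98 and than in DG by -1.37, and CA3 against DG (-0.38, adjusted p = 0.0208, Ion Proton -0.33 with adjusted p = 0.119) was no longer called. The 6 CA3 libraries from 9000 up that remained still had normalized Homer3 counts of 242 to 878 (mean 565), below every CA3 library of the other series, and their CA3 marker sum averaged 18124.

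Among the other called members, Homer2 was above DG in CA1 (1.06 under 9000, 0.82 from 9000 up) and in CA3 (0.48 and 0.59) in both series. Homer2 in CA1 against CA3 was called under 9000 (0.58) but not from 9000 up (0.23, adjusted p = 0.177). Shank3 in CA3 against DG likewise passed under 9000 (-0.41) and not from 9000 up (-0.17, adjusted p = 0.125). Shank3 in CA1 against CA3 was 0.28 under 9000 (Ion Proton adjusted p = 0.451) and 0.23 from 9000 up (Illumina adjusted p = 0.0769), so neither series called it. Shank1 in CA1 against DG was 0.28 under 9000, where the Ion Proton libraries missed (adjusted p = 0.398), and was called from 9000 up (0.29), as was Shank1 in CA3 against DG (0.46 from 9000 up, -0.07 under 9000). Dlg4 in CA3 against DG was called under 9000 (-0.42) and was -0.05 from 9000 up. A call in 1 series alone does not show that the series differ. Without the 14 libraries, the calls of Homer2, Shank1, Shank3 and Dlg4 made over all rats were kept, with 0.35 for Dlg4 and 0.36 for Shank3 in CA1 against CA3.

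**Figure D3:**
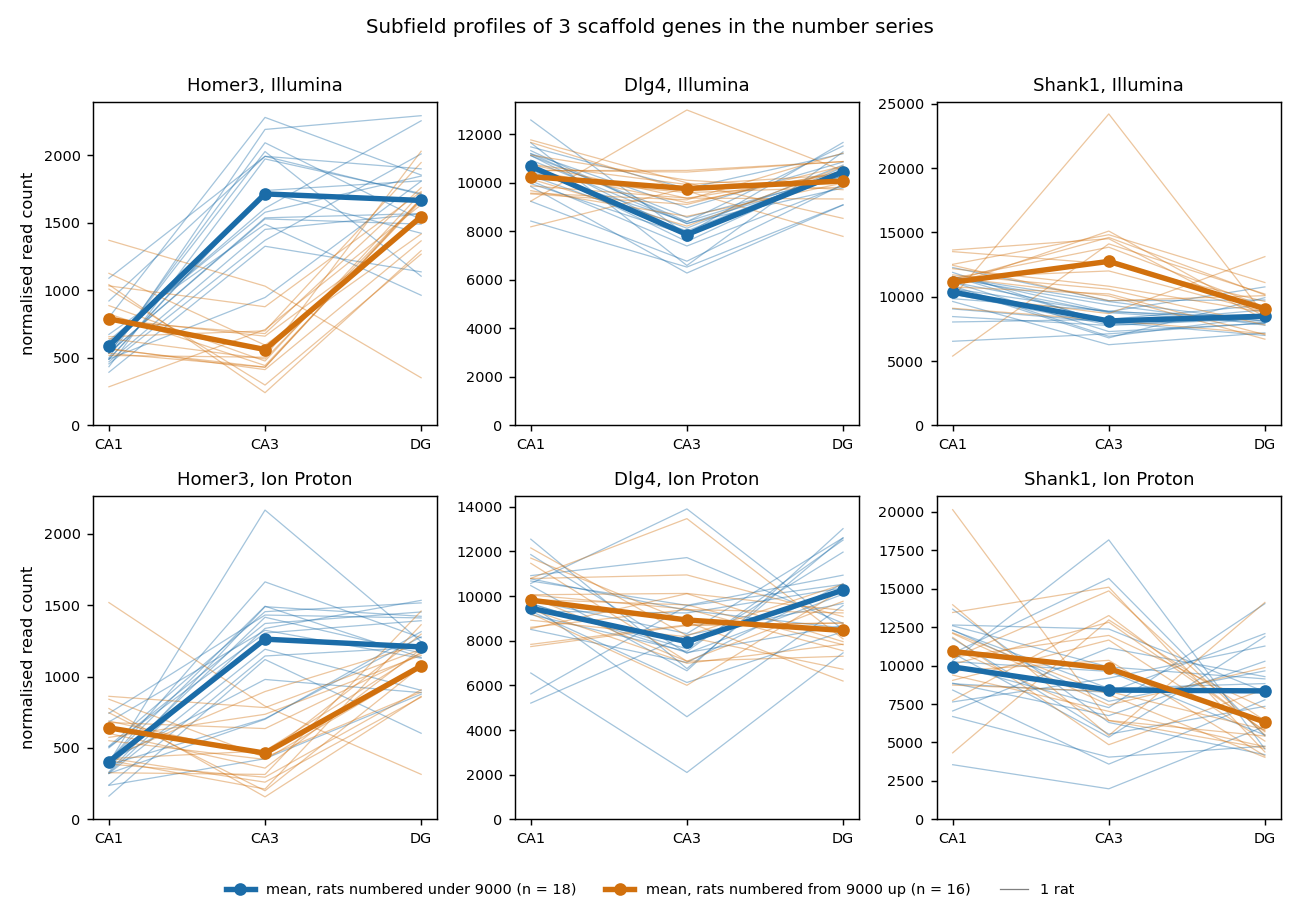
Levels of Homer3, Dlg4 and Shank1 across CA1, CA3 and DG in the Illumina and Ion Proton libraries. Rats numbered under 9000 (n = 18) and from 9000 up (n = 16) are drawn apart. In the Illumina libraries Homer3 in CA3 averages 1713 in the first series and 562 in the second.

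The known binding partners and relatives of the scaffolds were counted by the same rule. Of 18 tested PSD-95 partners (receptors, adhesion proteins and signalling enzymes), 5 were higher and 1 lower in CA1 than in CA3, 0 higher and 2 lower in CA1 than in DG, and 0 higher and 6 lower in CA3 than in DG, where 14.1%, 26.4% and 27.9% of all genes were called. In 1 direction the background was 7.12% higher and 6.95% lower for the first of these comparisons, 13.1% and 13.2% for the second, and 13.9% and 14% for the third. Their median log2 difference for CA3 against DG was -0.23, beside 0.01 over all genes, and 18 of 18 had a negative sign. Oligodendrocyte markers differed in level too, with sums of 56542 to 391699.5 in CA3 (mean 165796) and 46150 to 224480 in DG (mean 92272) and none of the 8 at 0. By series the oligodendrocyte sums averaged 198873 in CA3 and 59409 in DG under 9000, and 128585 and 129243 from 9000 up. Neuron marker sums averaged 116671 in CA3 and 103736 in DG under 9000, and 85647 and 102786 from 9000 up. Of the partners, 17 of 18 had a negative sign in each series. The part of tissue composition in the partner differences was not tested. The secreted synaptic linker Lgi1 gave -0.72 and its receptor Adam22 -0.35, the exchange factor Kalrn -0.52 and the NMDA receptor subunit Grin2a -0.44. For CA3 against DG the counts were 0 higher and 7 lower in the rats under 9000 (background 22.9%), 0 and 5 from 9000 up (21.6%), and 0 and 6 without the 14 libraries (28.5%). For CA1 against CA3 they were 6 and 1 (21.4%), 2 and 1 (3.88%), and 7 and 1 (20.4%). Grin2a was not called under 9000 (-0.26) nor Adam22 from 9000 up (-0.20).

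Of 8 tested Shank partners, 3 were higher in CA1 than in CA3 and 4 were lower in CA3 than in DG, with 1 higher and a median log2 of -0.24. Lzts3, a Shank3-binding spine protein, gave 0.48 for CA1 against CA3 and -0.87 for CA3 against DG, and Baiap2, an actin regulator, gave 0.41 and -0.65. Both were called in both comparisons under 9000 and without the 14 libraries. From 9000 up, 0 Shank partners were called for CA1 against CA3 (Lzts3 0.14, Baiap2 0.25) and 2 for CA3 against DG, among them Lzts3 (-0.46), beside 3 higher and 1 lower, and 1 higher and 3 lower, under 9000. Of 11 Homer partners, 3 were higher in CA1 than in CA3, 3 higher and 2 lower in CA1 than in DG, and 2 higher and 4 lower in CA3 than in DG. Over all rats both lists are to be read against the same 14.1%, 26.4% and 27.9% of all genes. For CA1 against CA3 the share was 21.4% under 9000, 3.88% from 9000 up and 20.4% without the 14 libraries. For CA3 against DG these shares were 22.9%, 21.6% and 28.5%. The Homer partner counts for CA3 against DG were 2 and 4 under 9000, 2 and 2 from 9000 up, and 2 and 4 without the 14 libraries, and those for CA1 against CA3 were 3 and 1, 2 and 0, and 4 and 1. The calcium channel Ryr2 was lower in CA1 than in DG (-0.98) and in CA3 than in DG (-0.69, and -0.51 and -0.89 by series), while the inositol trisphosphate receptor Itpr1 was higher in CA1 than in DG (0.76).

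Of 6 relatives of PSD-95 and SAPAP, Dlg3 passed in all 3 comparisons (0.27 in CA1 over CA3, then -0.24 in CA1 and -0.51 in CA3 over DG). From 9000 up Dlg3 was not called for CA1 against CA3 (0.23), and its other CA3 calls held in each series. The list had 2 calls between CA1 and CA3, 5 between CA1 and DG and 1 between CA3 and DG, beside 14.1%, 26.4% and 27.9% of all genes. Between CA3 and DG the calls were 0 higher and 1 lower under 9000, 2 and 2 from 9000 up, and 0 and 1 without the 14 libraries. Between CA1 and CA3 they were 1 and 1, 0 and 0, and 2 and 0. In the same order 22.9%, 21.6% and 28.5% of all genes were called between CA3 and DG. The shares between CA1 and CA3 were 21.4%, 3.88% and 20.4%. Dlgap2 was lower in CA1 than in DG (-0.46). Of 12 activity-induced early genes, listed because Homer1 has an induced form, 7 were higher and 0 lower in CA1 than in CA3, and 8 higher and 1 lower in CA1 than in DG, with a median log2 of 0.45 and 0.61, where 14.1% and 26.4% of all genes were called. For CA1 against CA3 the count was 6 higher in the rats under 9000, 3 higher from 9000 up and 6 higher without the 14 libraries. The count lower was 0 in each, and the median was 0.70, 0.28 and 0.44. Of all genes, 21.4%, 3.88% and 20.4% were called in these fits. Arc gave 0.74 and 1.01 and Nr4a1 0.74 and 1.13. Both were called for CA1 against CA3 in each series, with 0.96 and 0.48 for Arc and 1.01 and 0.44 for Nr4a1 under 9000 and from 9000 up, while Btg2 was lower in CA1 than in DG (-0.86).

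Age left the scaffold genes without a called change. The comparison set 24 aged against 10 young rats, and a call needed p under 0.01 in the Illumina libraries and a one-sided p under 0.05 for the same sign in the Ion Proton retest. By limma 0 of 8 members were called in CA1, CA3 or DG, against 0.832%, 0.393% and 1.07% of all genes. The count was 0 in each subfield also at an unadjusted Illumina p under 0.05 (6.15%, 3.31% and 5.2% of all genes), and 0 were called with edgeR or DESeq2. With a background of about 1 in 100 genes, 0 of 8 is no result about these genes. In CA1 the log2 differences ran from -0.16 for Homer3 (95% interval -0.51 to 0.20) to -0.0029 for Shank3 (-0.22 to 0.22), in CA3 from -0.04 for Homer2 to 0.16 for Shank1, and in DG from -0.10 for Homer3 to 0.08 for Shank1.

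The intervals say how large an age difference these libraries could hide. They were narrowest for Dlg4, -0.12 to 0.08 in CA1 and -0.07 to 0.12 in DG, and widest for Homer3 in CA3, -0.63 to 0.72. Homer1 in CA1 was 952 to 1640.1 in young rats (median 1229), 822 to 1309 in aged unimpaired rats (median 1162) and 809 to 1350.3 in aged impaired rats (median 1116). The groups overlapped, and the age difference was -0.13 (interval -0.30 to 0.04). None of the members' age differences differed between subfields (interaction test in limma, 0 of 8 with adjusted p under 0.05, also with edgeR and DESeq2, and 0 of 8 with unadjusted p under 0.05 in each of the 3 pairs), where 0 of all 14179 genes passed at the adjusted threshold and 1.93%, 0.353% and 1.06% at the unadjusted one. The partner lists held 18 genes for PSD-95, 11 for Homer and 8 for Shank. Among them the exchange factor Arhgef7, a Shank partner, was called with age in CA1 (-0.17, limma p = 0.000538, adjusted p = 0.0978, Ion Proton -0.16). With 0.832% of all genes called there, a call in lists of this size is no result about the partners.

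**Figure D4:**
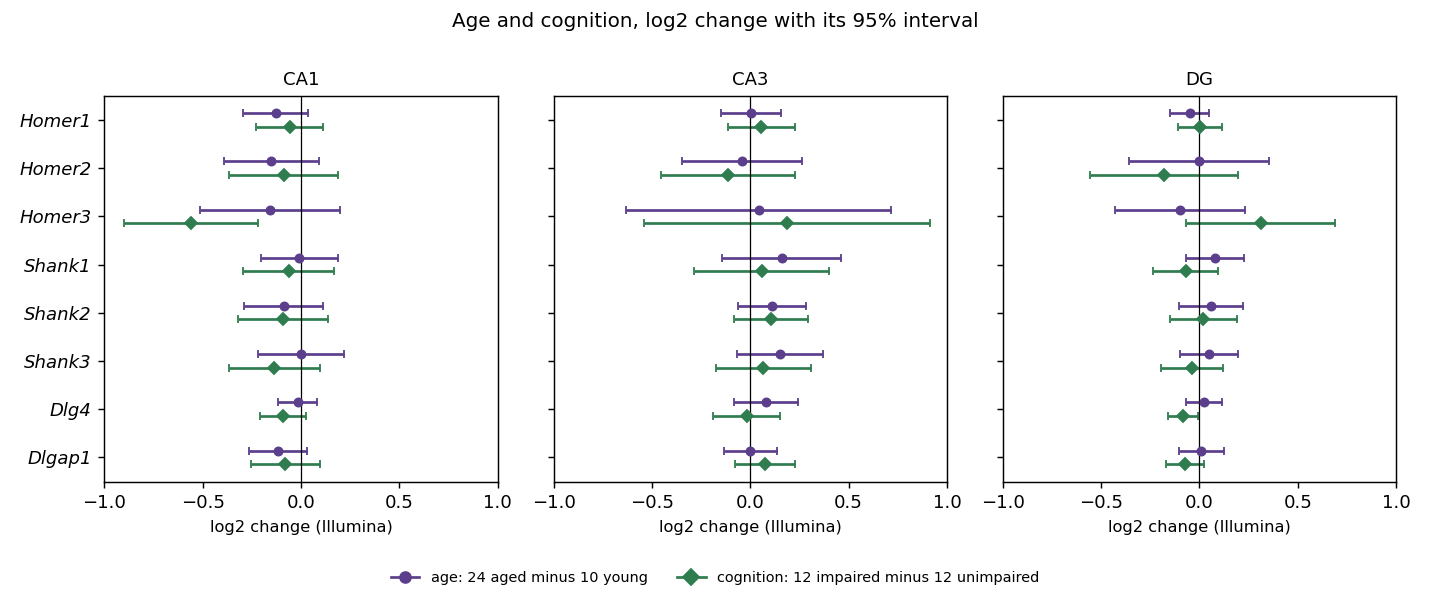
Log2 differences of the scaffold genes with age (aged against young) and with cognition (aged impaired against aged unimpaired) in each subfield, Illumina libraries, with 95% intervals. The cognition intervals of Homer3 in CA1 (-0.90 to -0.22) and of Dlg4 in DG (-0.16 to -0.0056) exclude 0, and the others drawn include it.

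Cognition, the comparison of 12 aged impaired with 12 aged unimpaired rats, called 0 of 8 members in CA1, CA3 and DG by the same rule with limma, against 0.62%, 0.0211% and 0.121% of all genes. At an unadjusted Illumina p under 0.05 the counts were 1, 0 and 1 (background 5.71%, 1.4% and 3.85%). With edgeR and with DESeq2 the CA1 count was 1, and that member was Homer3. Homer3 is also among the genes that the study set out for cognition in CA1 from these rats, so its values here are not independent evidence.

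The CA1 level of Homer3 was 500.4 to 1369.6 in aged unimpaired rats (median 731), 286 to 886 in aged impaired rats (median 491) and 471 to 1125 in young rats (median 622). Of the 12 impaired rats, 7 lay below every unimpaired rat and 10 below the unimpaired median. The impaired and unimpaired groups overlapped, and the young rats spanned most of both. The log2 difference was -0.56 (SE 0.17, 95% interval -0.90 to -0.22, limma p = 0.00329, adjusted p = 0.562). In the Ion Proton libraries of the same rats the medians were 532 and 374 and the difference was -0.40 with a one-sided p of 0.0607, which left it short of the rule. The WT table gave -0.47 (limma p = 0.00823, adjusted p = 0.636).

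With other tools the difference met the rule. edgeR gave p = 0.00300 in the Illumina libraries and -0.56 with p = 0.0291 in the Ion Proton ones, and DESeq2 gave p = 0.00105 and 0.0211. Leaving out 1 rat at a time moved the Illumina difference between -0.63 (without rat R9872) and -0.48 (without rat R9865), and the call was made without rat R2230, R2232, R9872 or R9875. Rat R9865, aged unimpaired, held the highest CA1 level (1369.6) and the lowest DG level (353), and its CA3 and DG libraries were among those nearer to another subfield. Within the number series the difference was -0.50 under 9000 (means 689 and 469.5, Ion Proton -0.11) and -0.57 from 9000 up (means 902 and 624, Ion Proton -0.60), and without the libraries that stood apart it was -0.52. The direction was the same in every one of these fits.

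**Figure D5:**
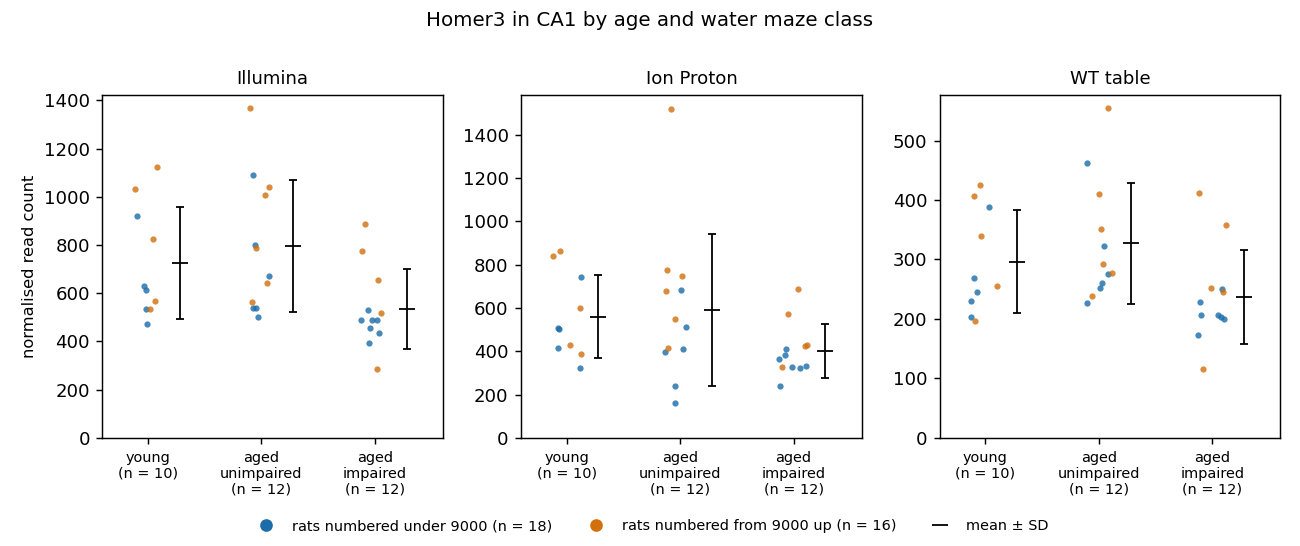
Homer3 in CA1 by rat in young, aged unimpaired and aged impaired groups, in the Illumina and Ion Proton libraries. In the Illumina libraries the impaired rats lie between 286 and 886 and the unimpaired between 500.4 and 1369.6, and the groups overlap more in the Ion Proton libraries.

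CA1 pyramidal markers also differed between these groups in the CA1 libraries. Their sum (6 of 8 genes listed) was 1589 to 16345 in unimpaired rats (mean 8539.7) and 4651 to 7456 in impaired rats (mean 6477), beside a mean of 7953 in young rats. The part of tissue composition in the Homer3 difference was not tested. Against the same young rats, shared by both comparisons, Homer3 in CA1 was -0.44 in impaired rats (limma p = 0.0181, Ion Proton -0.46) and 0.12 in unimpaired rats (Ion Proton -0.06), and neither was called. Over all members, 0 of 8 were called for unimpaired against young rats (backgrounds 0.607%, 0.386% and 0.621% in CA1, CA3 and DG, 0 at an unadjusted Illumina p under 0.05 where the backgrounds were 4.87%, 3.3% and 4.2%, 0 with edgeR or DESeq2). For impaired against young rats 0 of 8 were called too (1.21%, 0.274% and 0.948%, 0 with edgeR or DESeq2), and at an unadjusted Illumina p under 0.05 the count was 2 in CA1 (Homer3 and Dlgap1, the latter -0.16 with limma p = 0.0373) and 0 in CA3 and DG, beside 7.96%, 2.46% and 5.3% of all genes.

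In the other subfields Homer3 went the other way without passing. In DG it was 353 to 2291 in unimpaired rats (median 1543) and 1136 to 2028 in impaired rats (median 1739), a log2 difference of 0.31 (limma p = 0.120) that was 0.13 without rat R9865 and 0.05 without the libraries that stood apart. The WT table gave 0.50 in DG (limma p = 0.0237, adjusted p = 0.621), not refitted without these libraries. In CA3 it was 0.19 (interval -0.54 to 0.92). The interaction of cognition between CA1 and DG gave -0.87 for Homer3 (unadjusted p = 0.0279, adjusted p = 0.999, limma) and -0.97 in the WT table (unadjusted p = 0.0233, adjusted p = 0.630), and 0 of 8 members passed in any of the 3 interactions after adjustment, also with edgeR and DESeq2, where 0 of all 14186 genes did (4.56%, 3.48% and 1.84% at the unadjusted threshold). It is therefore not shown that the Homer3 difference was particular to CA1.

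Homer2 and Dlg4 showed no called difference with cognition. Homer2 in CA1 was 141 to 379 in unimpaired rats (median 264) and 166 to 311 in impaired rats (median 269), a log2 difference of -0.09 (interval -0.36 to 0.19). Dlg4 in CA1 was 9545 to 12594 in unimpaired rats (median 10759) and 8189 to 11772 in impaired rats (median 10256), with -0.09 (interval -0.21 to 0.02), and in DG -0.08 (limma p = 0.0455, Ion Proton p = 0.585). The partner genes held no cognition call. The largest CA1 differences at an unadjusted p under 0.05, named after their values were seen, were those of the calcium channels Ryr3 (-0.33, limma p = 0.000199, Ion Proton -0.18 with p = 0.194) and Itpr1 (-0.26, limma p = 0.0117), both Homer partners. The study also discusses Itpr1 for cognition in CA1 from these rats, so this value is not independent evidence.

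The genes most like each scaffold over all libraries of the 34 rats were found among 13907 genes by the mean of the Pearson correlations in the 2 poly-A tables, a description in which libraries share subfield, rat and number series. For Homer3 they were the actin-binding adaptor Klhl2 (0.947 Illumina, 0.875 Ion Proton), the annexin Anxa11 (0.920 and 0.887) and the secreted Wnt agonist Rspo2 (0.935 and 0.869). Dlg4 was most like Agap2 (0.907 and 0.913), a Homer partner, and Shank1 most like the kinase Wnk2 (0.831 and 0.928). Homer2 was most like Lphn2 (0.825 and 0.794), followed by Asap2 and AABR06039834.1, and Homer1 most like Mal2 (0.714 and 0.890), followed by Srpk2. Shank2 was most like Wdfy3 (0.705 and 0.777), followed by Ttbk1 and Iqsec1. After the leading gene came Ppp1r9b and Jph3 for Dlg4, Zc3h7b and Ctnnd2 for Shank1, Agap2 and Gse1 for Shank3, and Gnaq and Eif4g3 for Dlgap1. Shank3 was most like the junctophilin Jph3 (0.803 and 0.803) and Dlgap1 most like Frrs1l (0.828 and 0.842), which assembles AMPA receptors. Among the members themselves Dlg4 and Shank3 were the most alike (0.747 and 0.743).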

How the data were processed

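Subfields CA1, CA3 and DG of 34 male Fisher 344 rats were measured in 3 tables of 102 libraries each. Per the submitters' processing notes, Illumina reads were demultiplexed with bcl2fastq 2.17, trimmed with cutadapt 1.8.3, aligned with STAR 2.5 to rn5 and counted per gene with featureCounts 1.4.4, and DESeq2 1.16.1 is named for normalization. The methods give TopHat2 and Bowtie2 for the Ion Proton reads. The deposited values are a signal, counts that the authors divided by a size factor for each library. Whole reads could be recovered for 100% of values within 0.01 of a read, which gave the depths of 3246922 to 42750899 reads per Illumina library. Of the 8 tested rows Homer2 had the lowest median of reads in both poly-A tables, and Shank2 had it in the WT table (114.5). The labels name a stranded kit and the methods an unstranded one, so overlapping or antisense genes may share reads.

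Groups came from the sample titles and characteristics. Genes with a mean of at least 10 were tested with limma 3.58.1 (R 4.3.3, trended variance) on log2(value + 1), with Benjamini-Hochberg adjustment over all genes, and fold changes are on that scale, which understates those of low genes. Subfield calls needed adjusted p under 0.05 in both poly-A tables. Age and cognition calls needed p under 0.01 in the Illumina table and a one-sided p under 0.05 in the Ion Proton table. edgeR 4.0.16 and DESeq2 1.42.0 on the recovered reads, a pseudocount of 0.1, no filter, depth or number series as a covariate, each series alone, the rat as a block and leaving out each rat were alternatives. The limma models were tested on simulated data, and the edgeR and DESeq2 models were not. The subfields pair within a rat because they come from the same animal. Deviations of the same rat had a median correlation of 0.189 between CA1 and DG, 0.0866 between CA1 and CA3 and -0.0324 between CA3 and DG.

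Named genes were the 8 members, genes from among the 4 called genes with the largest change per partner list and comparison, and the 3 genes most like each member. Of the genes that this rule selects, 2 are not reported here. The members and lists were chosen with earlier results of these data known. The study's own method was DESeq2. No comparison columns of the authors were used. Nothing says that a library was repeated. The main subfield, interaction and series tests fitted all libraries without a block on the rat, so their p-values do not use the pairing. Those for age and cognition within a subfield measure the spread between rats.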

Additional observations from a re-analysis of the deposited data

Results flagged for a closer look

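Single values were screened only in the young rats, with 10 libraries per subfield, for each row in each poly-A table. In 4 of these 51 groups the highest or lowest value of a member stood far from the others by Dixon's test. Chance alone gives about 1 in 20. The aged groups, of 12 libraries each, were not screened. Dlgap1 in the DG library of young rat R9881 was 2879.7 in the Illumina table, below the 4149.9 to 5005 of the other young rats, and this library lay nearer to CA3 marker levels in the Illumina table only. Homer2 in the CA3 library of young rat R9879 was 363 in the Illumina table and 427 in the Ion Proton table, above the 148 to 227 and 156 to 292 of the others. That library is 1 of the 14 that lay nearer to another subfield, in its case CA1, where Homer2 was higher. Shank3 in the CA3 library of young rat R1922 was 1756 in the Ion Proton table, where the other young rats held 2919 to 3909.

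The second Shank2 row, ENSRNOG00000047651, was not tested between subfields, ages or cognitive groups and held a median of 236.5 reads per Ion Proton library, where the Illumina libraries held at most 2. The Ion Proton mean of this row was 244 for CA1, 277 for CA3 and 228 for DG.

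Subfield differences that differed between the number series, by the interaction test in both poly-A tables, were those of Homer3 for CA1 against CA3 (2.05) and CA3 against DG (-1.52), of Dlg4 for CA3 against DG (0.37) and of Shank1 for CA3 against DG (0.53), each given as the log2 difference from 9000 up minus that under 9000. The division was chosen after the data were seen. In the same comparisons 39.7% and 48.4% of all genes passed in the Illumina table.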

How the results depend on the processing

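Of the counts of called members, 234 of 240 stayed within 1.5 times the main count. Of 1920 log2 differences, 1727 either kept their call and direction, or stayed uncalled and within the SE of the main value. The members called for CA1 against CA3 fell from 4 to 2 in the rats under 9000 alone and to 0 in those from 9000 up alone. The shares of all genes called there were 21.4% and 3.88%, beside 14.1% over all rats. The count for cognition in CA1 rose from 0 to 1, which was Homer3, with edgeR, with DESeq2 and with depth as a covariate (1 each), and that for impaired against young rats in CA1 rose to 1 in the rats under 9000 alone. Reversed values were Homer3 in CA1 against CA3 from 9000 up (0.49), Homer3 in CA3 against DG under 9000 (0.046) and Shank3 in CA1 against CA3 in the WT table (-0.0081). The cause was not tested.

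Leaving out 1 rat gave 3 to 4 members for CA1 against CA3, 3 between CA1 and DG, 3 to 5 between CA3 and DG (5 without rat R1931, with Shank1 and Shank2 added), 0 to 1 for cognition in CA1 and 0 to 1 for impaired against young rats in CA1 (1 without rat R1922, R9872 or R9875), and 0 for every other age, cognition and interaction count. The Dlg4 call for CA1 against CA3 was lost with a pseudocount of 0.1, with no filter, with edgeR, with DESeq2, with depth as a covariate, in each series alone and in 21 of the 34 leave-one-out fits, by Ion Proton adjusted p = 0.0502 to 0.321. Homer3 in CA3 against DG was lost with edgeR (-0.47) and DESeq2 (-0.46), Shank2 in CA3 against DG was called with DESeq2 (0.14), and Dlg4 in CA3 against DG was called with quantile normalization (-0.22). With the rat as a block, Dlg4 was added for CA3 against DG, giving 4 members, and no other call changed. The subfield calls of members other than Homer3 were kept without the 14 libraries nearer to another subfield. In the Illumina libraries Homer2 had the lowest median of reads of the 8 tested rows, with at least 28 in each library.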

Other observations

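The WT table divided the reads of the scaffold genes differently from the Illumina poly-A table. In CPM (reads of the gene scaled to the counted reads of each library) in CA1, Shank1 averaged 813 in the poly-A table and 212 in the WT table, Shank3 291 and 118, and Dlg4 795 and 446, whereas Homer1 averaged 88.5 and 208 and Homer2 20.6 and 44.3. The library type of the WT table is not stated, the tables were normalized separately, and no test was made between them.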
